A study of Mus musculus with 6 samples.

Results

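The family of miR-15, miR-16, miR-195 and miR-497 was followed in 3 kinds of tissue macrophage of the mouse. Its members were taken by name, not by value: 6 of the 1247 mouse miRNAs on each array, namely mmu-miR-15a-5p, mmu-miR-15b-5p, mmu-miR-16-5p, mmu-miR-195a-5p, mmu-miR-195a-3p and mmu-miR-497-5p, written below without the prefix for the mouse except where each level is given. Brain microglia, colon macrophages and liver macrophages (Kupffer cells) were sorted from healthy wild-type male C57BL6/J mice, labelled as 6 weeks old in the sample labels and as 6 to 8 weeks in the design text, and no group was treated. Microglia were the CD45-intermediate cells with CD11b and F4/80 and without Ly6C and Ly6G. Colon macrophages carried CD45, CD11b, CD11c and CD64 and lacked Ly6C, and liver macrophages were gated on MHC class II together with CD64, F4/80, CD11b and CD45. Each group had 2 arrays, and each array held RNA from a pool of 4 to 6 mice, so the spread between replicates is a spread between pools. Because RNA was measured in bulk, fewer cells that hold a miRNA and less of it in each cell cannot be told apart.

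MicroRNAs are short RNAs that guide the Argonaute protein to matching messenger RNAs and lower their stability and translation. The seed, bases 2 to 8 of the mature strand, makes most of the contact with the target, so miRNAs that share a seed are expected to share many targets. The miR-15/16 family is known as a brake on cell division and survival: its targets include cyclins, the checkpoint kinase CHEK1 and the anti-apoptotic protein BCL2. In human chronic lymphocytic leukaemia the locus of miR-15a and miR-16-1 is often deleted, and in the mouse heart miR-195 rises when cardiomyocytes stop dividing after birth. A hairpin is cut into a duplex of which the 5p strand, the 3p strand or both may be kept. The 5p strands carry the family seed, and miR-195a-3p, the opposite strand of miR-195a, is read here as a second measure of that hairpin.

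The mature sequences are shown because the shared seed defines the family while the remaining bases set the members apart. They are RefSeq sequences (GRCm38.p6), written 5′ to 3′, with bases 2 to 8 in capitals.
miR-15a-5p: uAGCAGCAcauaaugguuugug
miR-15b-5p: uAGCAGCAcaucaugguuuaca
miR-16-5p: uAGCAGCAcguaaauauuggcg
miR-195a-5p: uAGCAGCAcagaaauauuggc
miR-497-5p: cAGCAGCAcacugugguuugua
miR-195a-3p: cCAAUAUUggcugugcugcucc
All 6 members were matched to RefSeq. The row miR-497-5p was matched through the gene Mir497, which lists mir-497 among its synonyms and whose 5p arm is now named miR-497a-5p. The seed AGCAGCA stood in 5 of the 6 members and in 10 of the 1679 mature mouse names of the RefSeq table, 0.596%. Counted from the 5′ end, miR-16-5p and miR-195a-5p were identical at 19 of 21 positions and differed by G10A and U11G, with the base of miR-16-5p written first. miR-15a-5p and miR-15b-5p were identical at 18 of 22 positions, and miR-16-5p and miR-497-5p at 11 of 22. The array's probe sequences were not used here, so whether a probe for one member also reads another was not tested.

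The members come from 3 pairs of neighbouring genes. Mir15a and Mir16-1 lie on the minus strand at chr14:61631894-61632096 (GRCm38.p6), inside the span of the long non-coding RNA gene Dleu2, with 80 bases between their mature arms. Mir15b and Mir16-2 lie on the plus strand at chr3:69009775-69009981, inside the span of Smc4, which encodes a condensin subunit, with 83 bases between their arms. Mir497 and Mir195a lie on the plus strand at chr11:70234730-70235121 with 271 bases between their arms, and no other gene span than that of Mir497b, annotated over Mir497 on the minus strand, holds them. miR-16-5p has the same sequence from both of its genes, so its row adds the output of the chromosome 14 and chromosome 3 pairs. The hairpin of Mir195a, chr11:70235042-70235135, plus strand, is shown because both of its strands were measured, and they stand in capitals.
Mir195a: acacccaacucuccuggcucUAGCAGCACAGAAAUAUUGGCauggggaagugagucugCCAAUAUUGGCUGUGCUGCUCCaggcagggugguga

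Signals are 1-colour intensities, scaled between arrays and given as log2 scaled signal, with a common floor of 1.64. Between 300 and 403 miRNAs were detected per array. Levels of the miRNAs detected on all arrays correlated at 0.963 to 0.988 between replicates of a group, and the liver replicates lay farther apart (median difference 0.57 log2 units) than those of microglia (0.26) or colon macrophages (0.23). miR-142-3p, typical of haematopoietic cells, was present on every array at 11.24 to 12.31, and miR-223-3p, a miRNA of myeloid cells, at 8.27 and 8.47 in microglia and 11.45 to 12.83 on the other arrays. Precision is limited by the number of arrays, 2 in each group. Brightness depends on the probe, so levels were compared between populations within a miRNA.

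miR-15a-5p was higher in microglia than in either other population. The microglia arrays gave mmu-miR-15a-5p at 12.85 and 12.95, the colon arrays at 11.46 and 11.40 and the liver arrays at 10.56 and 11.74. Both microglia arrays lay above the other 4, while the colon arrays fell between the liver arrays. The error estimate deposited with the signal was 7.09% of it on every array, small against the gap of 1.18 log2 units between the liver replicates.

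miR-16-5p followed the same order. For mmu-miR-16-5p microglia gave 12.43 and 12.70, against 11.12 and 11.19 for the colon and 10.70 and 11.48 for the liver. Again the microglia arrays were the highest and the colon values fell between those of the liver.

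miR-15b-5p, the neighbour of Mir16-2, was lowest in microglia. The level of mmu-miR-15b-5p was 9.24 and 9.36 in microglia, 9.80 and 10.10 in the colon and 10.14 and 10.59 in the liver. The 3 groups did not overlap, although the highest colon array and the lowest liver array differed by less than the replicates of either group.

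miR-195a-5p varied least between the groups. Microglia held mmu-miR-195a-5p at 6.76 and 6.66, the colon at 7.59 and 7.24 and the liver at 6.73 and 6.76. The colon arrays were the highest, and the microglia and liver arrays overlapped.

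miR-195a-3p was detected on neither microglia array. In the colon mmu-miR-195a-3p was at 4.63 and 5.19 and in the liver at 4.68 and 3.17, where the replicates were 1.51 log2 units apart. Its liver replicate 2 had a signal of 9.71 with an error of 2.13 before scaling, 22% of the signal, against 12.1% to 12.8% on the other arrays that detected it.

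miR-497-5p was dim in microglia and well above background in the other groups. The level of mmu-miR-497-5p was 4.41 and 3.48 in microglia, 7.09 and 6.62 in the colon and 6.20 and 6.06 in the liver. The order was colon above liver above microglia with no overlap. The deposited error estimate was 15.4% and 22.1% of the signal on the microglia arrays, against 8.11% to 8.8% on the other 4.

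**Figure D1:**
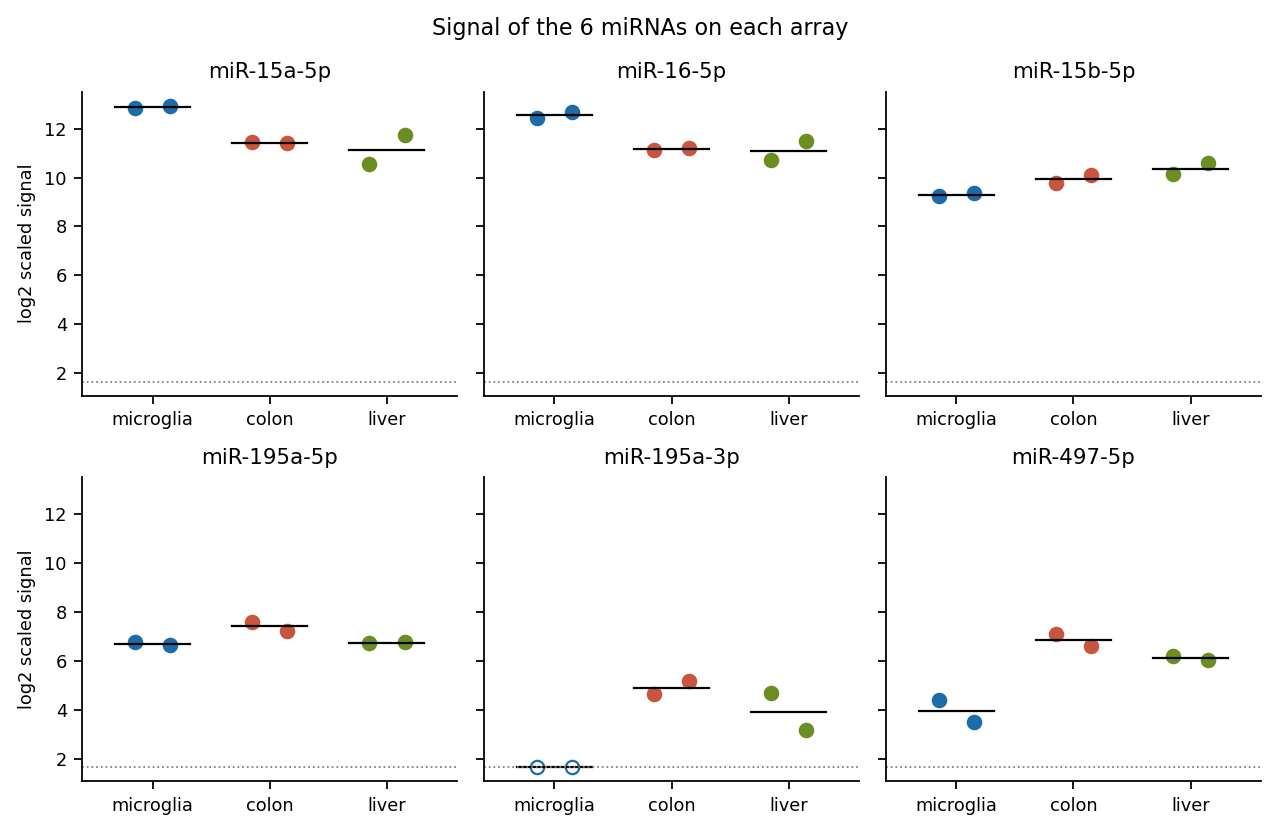
Log2 scaled signal (vertical axis) of the 6 family members on each of the 6 arrays, by population. Points are arrays, bars are group means, the dotted line is the floor of 1.64, and open points mark arrays where the miRNA was not detected; miR-15a-5p and miR-16-5p stand highest in microglia, and miR-497-5p and miR-195a-3p lowest.

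The first comparison set microglia, which settle in the brain before birth, against colon macrophages, which are renewed from blood monocytes, to find miRNAs that mark microglia. miR-15a-5p was 2.77-fold higher in microglia (12.90 ± 0.07 against 11.43 ± 0.04, mean ± SD, n = 2; log2 change 1.47, SE 0.44, limma adjusted p = 0.0447). miR-16-5p was 2.66-fold higher (12.57 ± 0.19 against 11.16 ± 0.05; log2 change 1.41, SE 0.35, limma adjusted p = 0.0288). miR-497-5p fell by 2.91 on the log2 scale, from 6.85 ± 0.34 in colon macrophages to 3.94 ± 0.65 in microglia (SE 0.40, limma adjusted p = 0.00598). miR-195a-3p, at 4.91 ± 0.40 in colon macrophages, was at least 8-fold lower in microglia, if the lowest detected signal of each microglia array bounds it there. Its limma adjusted p of 0.0107 was computed with the floor in place of a level, which gives that group an SD of 0.

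miR-15b-5p and miR-195a-5p did not pass the test against colon macrophages. The change of miR-15b-5p was -0.65 (95% interval -1.39 to 0.09, limma adjusted p = 0.116) and that of miR-195a-5p was -0.70 (95% interval -1.37 to -0.04, limma adjusted p = 0.0722), although the arrays of both did not overlap between the groups. Over the whole array 46.2% of the 379 miRNAs tested were called, 17.7% higher and 28.5% lower, against 4 of the 6 members, 2 higher and 2 lower. For 85.2% of tested miRNAs the arrays did not overlap, 34% with microglia higher and 51.2% with microglia lower, against 6 of 6 members, 2 higher and 4 lower. The median change of the members was -0.68, and that of all tested miRNAs -0.43.

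With 1 array of microglia or colon macrophages left out, the lone array being taken to vary like the other groups, the calls of miR-15a-5p, miR-16-5p and miR-195a-3p were lost (limma adjusted p 0.183 to 0.203, 0.111 to 0.145 and 0.0896 to 0.114). The call of miR-497-5p was kept without either microglia array (limma adjusted p 0.0139 and 0.0271) and was lost without colon replicate 1 or 2 (0.0659 and 0.0538).

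Liver macrophages, a population that also descends largely from embryonic precursors, were the other reference for microglia. miR-15a-5p was 3.37-fold higher in microglia (12.90 ± 0.07 against 11.15 ± 0.83, n = 2; log2 change 1.75, SE 0.44, limma adjusted p = 0.0237) and miR-16-5p 2.78-fold higher (12.57 ± 0.19 against 11.09 ± 0.55; log2 change 1.48, SE 0.35, limma adjusted p = 0.0199). miR-497-5p fell by 2.18 on the log2 scale from 6.13 ± 0.10 (SE 0.40, limma adjusted p = 0.00938). miR-195a-3p, at 3.92 ± 1.07 in liver macrophages, was at least 4.03-fold lower in microglia by the same bound (limma adjusted p = 0.0213). miR-15b-5p was 2.09-fold lower in microglia, 9.30 ± 0.08 against 10.37 ± 0.32 (SE 0.29, limma adjusted p = 0.0301), which is the opposite direction to miR-15a-5p and miR-16-5p. Less the median change of all tested miRNAs, its log2 change was -0.46, against 2.36 for miR-15a-5p and 2.08 for miR-16-5p. By log2 change miR-15b-5p stood at rank 220 from the top of 382, near the middle.

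miR-195a-5p had a change of -0.04 against liver macrophages (95% interval -0.70 to 0.63, limma adjusted p = 0.909). In this comparison 52.9% of 382 tested miRNAs were called, 21.2% higher and 31.7% lower, against 5 of the 6 members, 2 higher and 3 lower. Arrays did not overlap for 81.4% of tested miRNAs, 32.7% with microglia higher and 48.7% with microglia lower, and for 5 of the members, 2 higher and 3 lower. The median change was -0.55 for the members and -0.60 for all tested miRNAs. The microglia arrays enter both comparisons, so the results for the colon and for the liver are not independent.

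Against liver macrophages too, leaving out either microglia array ended the calls of miR-15a-5p, miR-16-5p, miR-15b-5p and miR-195a-3p (limma adjusted p 0.0842 to 0.149), and so did leaving out either colon array, which enters through the shared estimate of the spread (0.0519 to 0.0884). miR-497-5p kept its call in those 4 fits (0.0196 to 0.0449) and lost it without liver replicate 1 or 2 (0.0738 and 0.0536), while the change of miR-15a-5p was 1.16 without liver replicate 1 and 2.34 without liver replicate 2. The change of miR-195a-3p, computed with the floor for microglia, was -1.53 without liver replicate 1 and -3.04 without liver replicate 2, against -2.28 with both, so the bound of 4.03-fold rests on liver replicates that lie far apart.

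**Figure D2:**
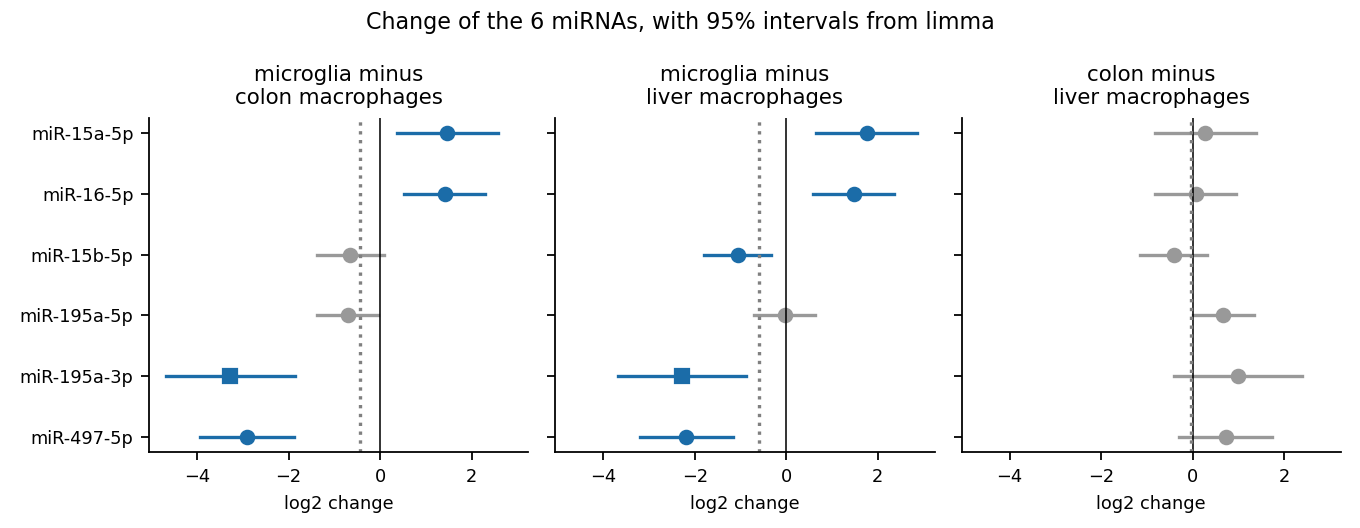
Log2 change (horizontal axis) of each family member in the 3 comparisons, with limma's 95% interval. Blue marks an adjusted p under 0.05, squares mark miR-195a-3p where microglia stand at the floor, and the dotted line is the median change of all tested miRNAs; miR-15a-5p and miR-16-5p lie to the right of 0 in both microglia comparisons and miR-497-5p to the left.

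Colon and liver macrophages were compared as the pair without microglia. Of the 6 members 0 passed limma's test, and 1 of them, miR-195a-5p, had an unadjusted p under 0.05. That miRNA had a limma adjusted p of 0.207. It was 1.59-fold higher in the colon, with a log2 change of 0.67 and a 95% interval of 0.0023 to 1.33. miR-497-5p had a change of 0.73 (95% interval -0.30 to 1.75, limma adjusted p = 0.33) and miR-195a-3p one of 0.99 (-0.41 to 2.39, limma adjusted p = 0.33). The remaining changes were 0.28 for miR-15a-5p, 0.07 for miR-16-5p and -0.42 for miR-15b-5p, with limma adjusted p of 0.704, 0.913 and 0.411. Called miRNAs made up 10.1% of the 396 tested, 5.3% higher and 4.8% lower in the colon, so 0 of 6 is near that background. Arrays did not overlap for 59.6% of tested miRNAs, 25.3% with the colon higher and 34.3% with it lower, and for 3 of the members, 2 higher and 1 lower, and the median change was 0.47 for the members and -0.04 for all. Without liver replicate 2, miR-15a-5p was higher in colon macrophages (log2 change 0.87, limma adjusted p = 0.0364), and without liver replicate 1 its change was -0.31.

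**Figure D3:**
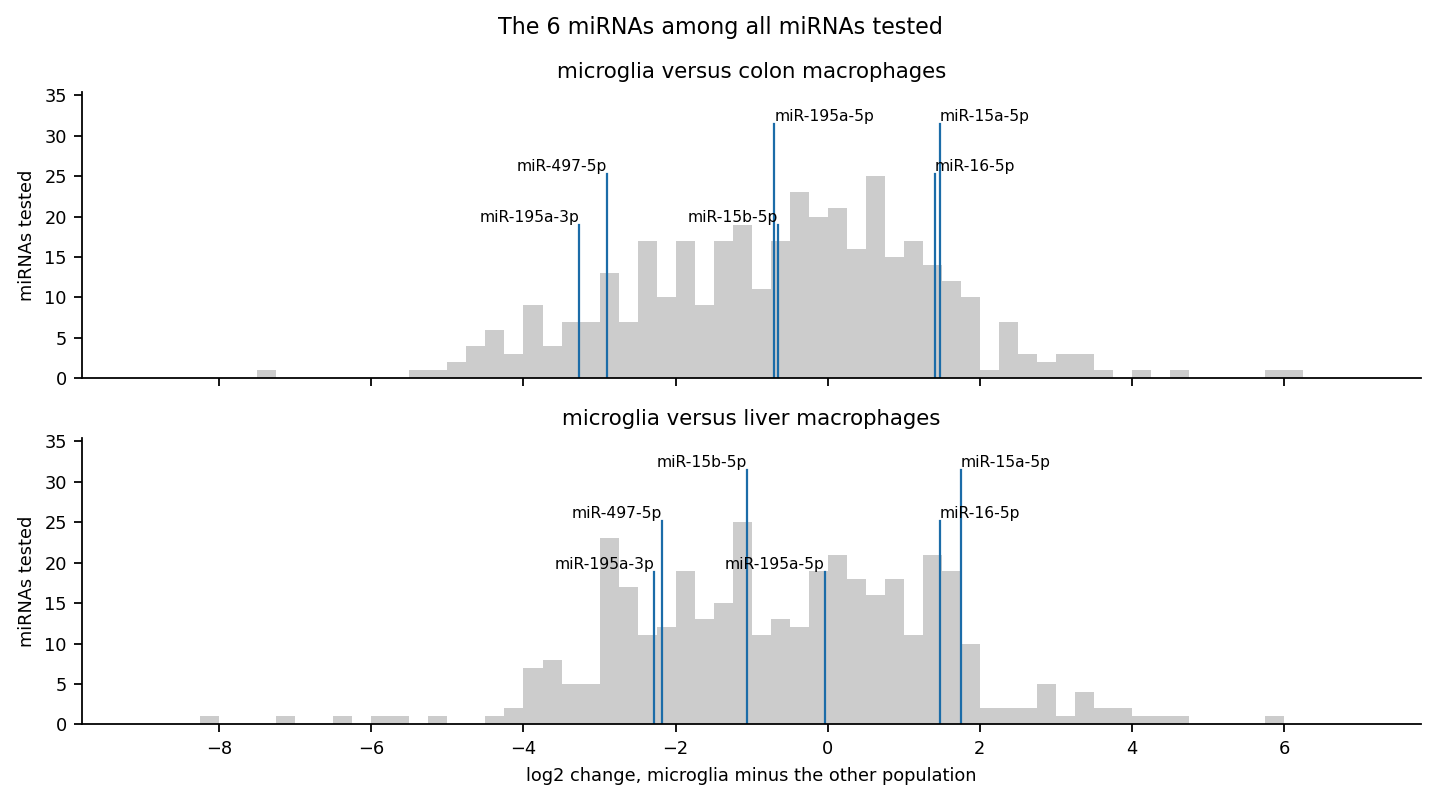
Number of tested miRNAs (vertical axis) by log2 change, microglia minus colon macrophages (top) and microglia minus liver macrophages (bottom), with the family members marked by lines. miR-15a-5p and miR-16-5p lie on the upper side of both distributions, at 1.41 to 1.75, and miR-497-5p on the lower side, at -2.91 and -2.18. The line of miR-195a-3p stands where the floor in microglia puts it and is no measured change.

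The size of these changes moved with the scaling between arrays, and so did the median of all tested miRNAs. Against colon macrophages that median was -0.43 with the scaling used here, -0.05 after scaling on the median, 0.02 after quantile normalization, -0.02 in the authors' value table, -0.76 with no scaling and -0.85 on the array's dmr_ control rows, the last chosen after the data were seen. The calls over all miRNAs, 67 higher and 108 lower here, became 112 and 69, 100 and 59, 95 and 65, 29 and 108, and 25 and 105 in the same order. Against liver macrophages the median of all was -0.60 here and -0.87 to -0.12 under the other scalings, and the calls went from 81 higher and 121 lower to between 34 and 120 on the control rows and 124 and 108 with median scaling.

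miR-15a-5p was higher in microglia under each of these 6 scalings, by 1.04 to 2.34 log2 units against the colon and by 1.34 to 2.70 against the liver. The rise of miR-16-5p ranged from 0.98 to 1.80 and from 1.06 to 1.91. Neither passed the test with no scaling (limma adjusted p 0.123 and 0.0991 against the colon, 0.074 and 0.0876 against the liver) or on the control rows (0.149 and 0.117, 0.0842 and 0.0946). miR-497-5p passed under all 6, with changes of -3.34 to -2.18 against the colon and -2.60 to -1.51 against the liver. For miR-195a-5p the direction against liver macrophages flipped: it was -0.41 with no scaling, -0.45 on the control rows and 0.40, 0.42 and 0.46 after median scaling, after quantile normalization and in the authors' value table, with limma adjusted p from 0.124 to 0.446 under these 5 settings. miR-15b-5p was lower against the liver under all 6, by -1.48 to -0.63, and missed the threshold with median scaling (limma adjusted p = 0.0529). miR-195a-3p, set at the floor in microglia, was lower and passed against the colon under all 6 (limma adjusted p 0.00947 to 0.0332), while against the liver it was lower under all 6 and missed the threshold with median scaling (0.0537) and quantile normalization (0.0894). With a floor of 10 scaled units it passed against neither group (limma adjusted p 0.0921 and 0.354).

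**Figure D4:**
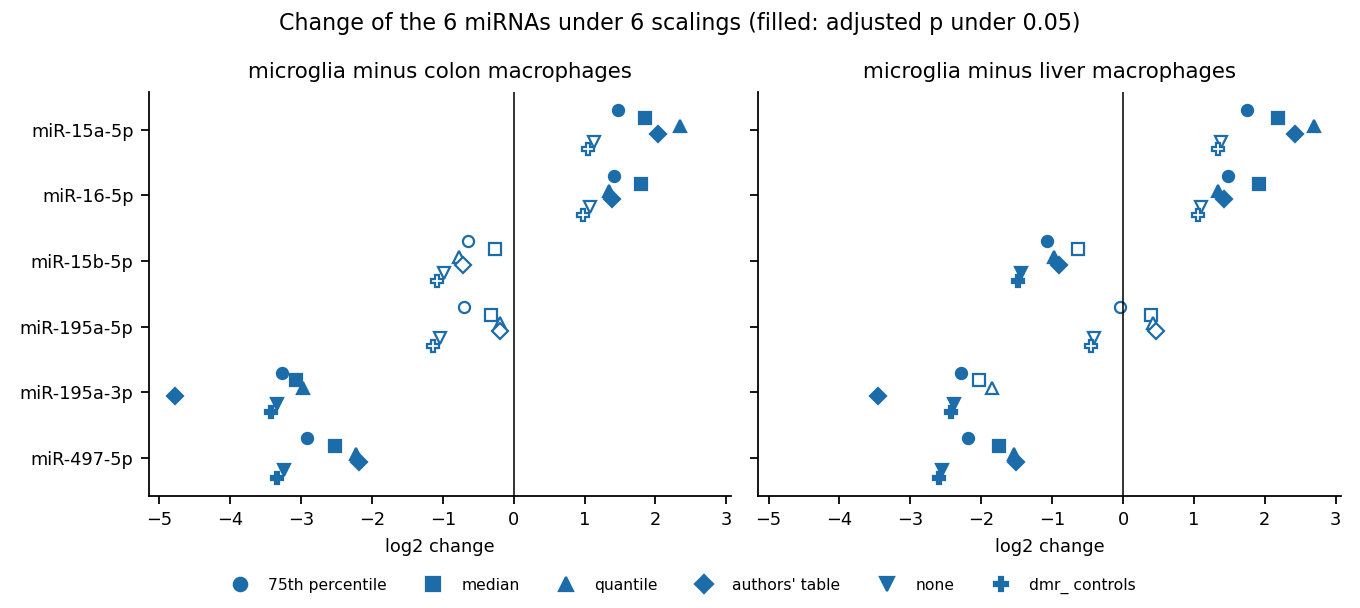
Log2 change (horizontal axis) of each member, microglia minus colon (left) and microglia minus liver macrophages (right), under 6 scalings given by the symbols. Filled symbols have a limma adjusted p under 0.05; miR-15a-5p and miR-16-5p stay to the right of 0 and miR-497-5p to the left, while miR-195a-5p crosses 0 on the right panel.

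A factor that multiplies every signal of an array cancels in differences between members within it, while a change that depends on brightness does not. Such differences were examined next, with the scaling used here, for all 10 pairs of the 5p members, a set chosen after the data were seen. The level of a difference depends on the probes, and its shift between populations is what is read. miR-15a-5p minus miR-16-5p was 0.41 and 0.24 in microglia, 0.33 and 0.20 in the colon and -0.15 and 0.25 in the liver. The groups overlapped: the shift between microglia and the colon was 0.06 and between microglia and the liver 0.28, with a pooled SD between replicates of 0.19.

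The 2 miR-15 paralogs separated. miR-15a-5p minus miR-15b-5p was 3.60 and 3.59 in microglia, 1.66 and 1.30 in the colon and 0.42 and 1.14 in the liver. The shift was 2.12 log2 units from colon macrophages to microglia and 2.82 from liver macrophages, against a pooled SD of 0.33. miR-15b-5p minus miR-16-5p shifted by -2.06 and -2.54 (pooled SD 0.17), although Mir15b and Mir16-2 are neighbours, and miR-16-5p is also made from Mir16-1.

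The pair on chromosome 11 separated as well. miR-195a-5p minus miR-497-5p was 2.35 and 3.18 in microglia, 0.50 and 0.62 in the colon and 0.53 and 0.71 in the liver. Colon and liver macrophages differed by -0.06 in this measure, and microglia lay 2.20 and 2.15 above them (pooled SD 0.35). miR-16-5p minus miR-195a-5p, the pair with 2 differing bases, shifted by 2.11 and 1.51 (pooled SD 0.38). In 8 of the 10 pairs both microglia arrays lay outside the other 4, and 7 of these pairs reached p = 0.0667 in the 2-sided exact permutation test (adjusted p = 0.0953 over the 10 pairs), which is the lowest value open to 15 splits of 6 arrays. The exceptions were miR-15a-5p with miR-16-5p and miR-15b-5p with miR-195a-5p, which had an exact permutation p of 0.467. The count and its exceptions hold for the scaling used here. The pairs were not computed after quantile normalization or in the authors' value table, where the members changed by other amounts. The 10 pairs are drawn from 5 members and are not independent. How many pairs among all miRNAs set microglia apart in this way was not computed, so 8 of 10 has no background beside it. Single tested miRNAs did not overlap for 85.2% against the colon and 81.4% against the liver, each 2 arrays against 2.

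**Figure D5:**
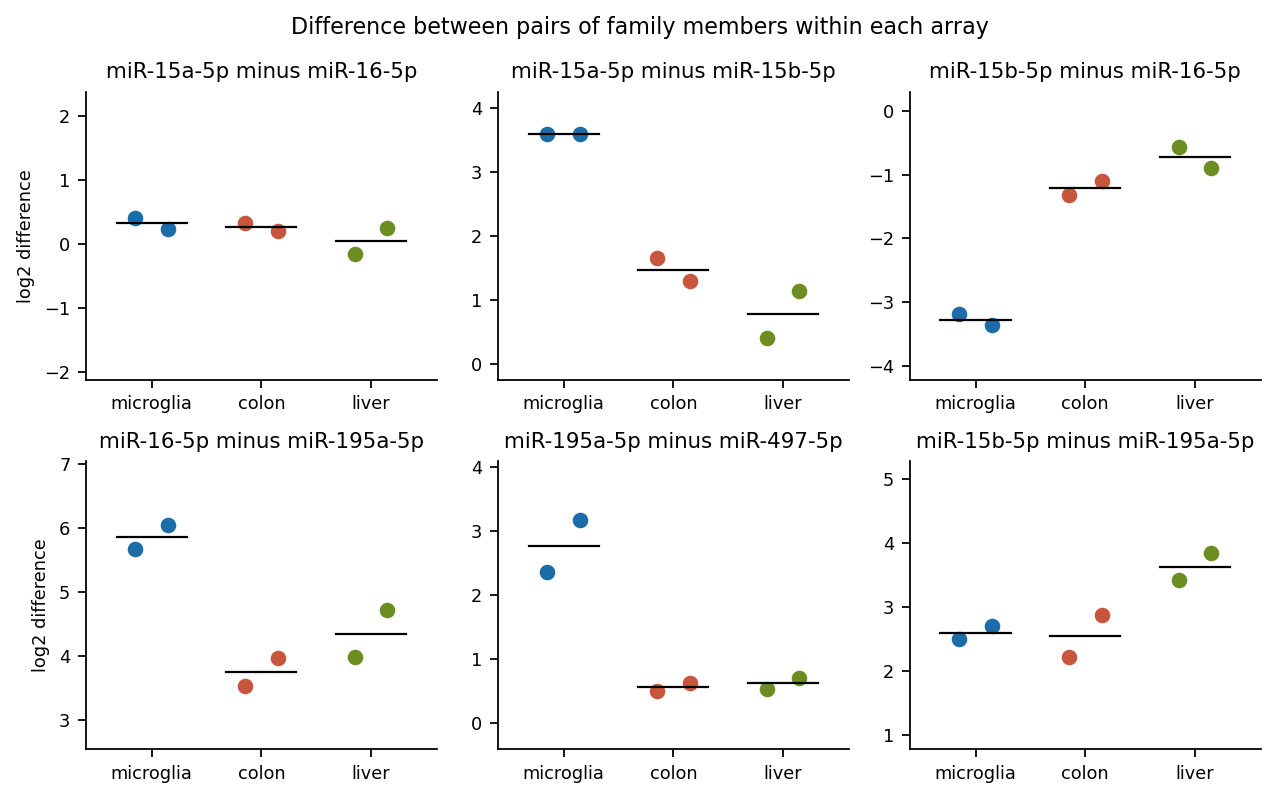
Log2 difference between 2 members within each array (vertical axis, the same span in each panel) for 6 of the 10 pairs, by population. Points are arrays and bars group means; microglia stand apart from both other groups for miR-15a-5p with miR-15b-5p, miR-15b-5p with miR-16-5p, miR-16-5p with miR-195a-5p and miR-195a-5p with miR-497-5p.

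The mean of miR-195a-5p and miR-497-5p, from chromosome 11, was set against that of miR-15a-5p, miR-15b-5p and miR-16-5p, from chromosomes 14 and 3 together. The first minus the second was -5.93 and -6.60 in microglia, -3.45 and -3.97 in the colon and -4.00 and -4.86 in the liver. Both microglia arrays had the lowest values. Microglia differed from the other 4 arrays by -2.19, against a pooled SD between replicates of 0.49, and the exact permutation test, 2-sided, gave p = 0.0667, its lowest possible value. The difference was -2.55 against the colon and -1.83 against the liver (exact permutation p = 0.333 each, the smallest that 2 against 2 arrays allow). Colon and liver macrophages differed by 0.72 (exact permutation p = 0.333). Both means pool members that moved unlike each other, so the difference is not one shared by all members. In microglia miR-15b-5p lay lower and miR-15a-5p and miR-16-5p higher, and miR-497-5p changed more than miR-195a-5p. miR-15b-5p minus miR-195a-5p, also taken across these chromosomes, did not set microglia apart with the scaling used here (exact permutation p = 0.467).

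For the 2 strands of miR-195a, miR-195a-3p minus miR-195a-5p was -2.96 and -2.04 in the colon and -2.05 and -3.60 in the liver. The groups overlapped, and their means differed by 0.32 against a pooled SD of 0.90. In microglia the 3p strand was below detection, so the difference has only a bound there, while the 5p strand was at the liver level. The lowest detected signal was 2.03 and 1.79 on the microglia arrays, and miR-195a-5p stood at 6.76 and 6.66. Taken with that bound, the gap was wider than on any colon or liver array.

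Relatives of the family on the array were taken by 2 rules: the opposite strands of the family's hairpins, and the other miRNAs with the same seed, with miR-503-5p as a near relative. Of 11 such miRNAs 8 were detected on no array. Among 5 opposite strands miR-16-1-3p alone was detected, on colon replicate 1 below the common floor. Of the other 5 miRNAs with the seed AGCAGCA, miR-322-5p alone was detected. The relatives that carried signal are shown with bases 2 to 8 in capitals, since miR-322-5p has the family seed and miR-503-5p does not.
miR-322-5p: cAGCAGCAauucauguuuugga
miR-503-5p: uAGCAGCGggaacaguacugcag
Their genes lie on the minus strand of chromosome X, with the mature strands at chrX:53054306-53054327 and chrX:53054027-53054049 (GRCm38.p6).

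miR-322-5p, which is known for promoting cell cycle arrest during muscle differentiation in the mouse, was also highest in microglia with the scaling used here, the only one given for it. It was at 9.70 and 9.87 in microglia, 8.02 and 7.74 in the colon and 7.67 and 8.33 in the liver. The rise in microglia was 3.75-fold against the colon (log2 change 1.91, SE 0.33, limma adjusted p = 0.011) and 3.44-fold against the liver (log2 change 1.78, SE 0.33, limma adjusted p = 0.00933). miR-503-5p was at 4.16 and 4.31 in microglia, at 2.98 on 1 colon array and not detected on the other, and at 3.20 and 3.35 in liver macrophages. It was higher than in the colon (log2 change 1.93, limma adjusted p = 0.0296), a change computed with the floor in place of a level on the colon array that did not detect it, and its change of 0.96 against the liver did not pass (limma adjusted p = 0.143).

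The miRNAs whose levels over the 6 arrays were most like each member's, among 331 candidates tested and detected on at least 4 arrays, are given as a description. The 6 arrays fall into 3 populations and share one scaling, so high correlations are common. For miR-15a-5p they were miR-29a-3p (r = 0.998), miR-30e-5p (0.992) and miR-186-5p (0.991), and for miR-16-5p miR-93-5p (0.992), miR-107-3p (0.992) and miR-29a-3p (0.991). For miR-15b-5p they were miR-721 (0.986), miR-135a-1-3p (0.985) and miR-3081-5p (0.977). miR-195a-5p was most like miR-199b-5p (0.926), miR-1949 (0.912) and miR-5118 (0.897). Of these, miR-5118 was at the floor on both microglia arrays and miR-199b-5p on microglia replicate 2. miR-199b-5p is also among the smooth muscle and fibroblast markers given below. miR-195a-3p, with both microglia arrays at the floor, was most like miR-466i-5p (0.988), miR-3096a-5p (0.987) and miR-1187 (0.987), and miR-497-5p most like miR-3470a (0.997), miR-714 (0.989) and miR-5622-3p (0.97). Within the family miR-15a-5p and miR-16-5p correlated at 0.986.

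Markers of other cell types moved with some members. miR-451a, which red blood cells hold at very high levels together with miR-16-5p, was at 9.46 and 6.93 in microglia, 5.88 and 5.68 in the colon and 7.43 and 7.30 in the liver. On microglia replicate 2 it lay below both liver arrays, while miR-16-5p and miR-15a-5p were 0.27 and 0.10 higher there than on microglia replicate 1. The erythrocyte and platelet list had 2 markers on the array: both were detected on microglia replicate 1 and 1 on each of the other arrays, with a summed scaled signal of 122 to 715 in microglia, 51.2 to 58.8 in colon macrophages and 158 to 172 in liver macrophages.

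The 3 neuronal markers, miR-124-3p, miR-9-5p and miR-9-3p, were all detected on both microglia arrays, with a summed scaled signal of 36.2 to 38.0, against 0 to 5.55 in colon macrophages and 0 in liver macrophages. They were higher in microglia, as miR-15a-5p and miR-16-5p were. The part of neurons and of red cells in the levels of miR-15a-5p and miR-16-5p was not tested.

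Of 6 smooth muscle and fibroblast markers, all 6 were detected on both colon arrays, 4 on both liver arrays, 2 on microglia replicate 1 and 0 on microglia replicate 2. Their summed scaled signal was 486 to 714 in colon macrophages, 147 to 221 in liver macrophages and 0 to 43.7 in microglia, the same order as for miR-497-5p. miR-143-3p and miR-145a-5p, the defining markers of smooth muscle, were detected on the colon arrays alone. From replicate 1 to replicate 2 the summed signal of the 6 markers fell in every group. So did those of the endothelial list and of the erythrocyte and platelet list, while those of the remaining lists did not. miR-497-5p changed by -0.92 in microglia, -0.48 in the colon and -0.14 in the liver over the same replicates. For miR-195a-5p the changes were -0.10, -0.35 and 0.03, and for miR-195a-3p 0.56 in the colon and -1.51 in the liver. The part of smooth muscle and fibroblasts in the levels of miR-497-5p, miR-195a-5p and miR-195a-3p was not tested.

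The 2 endothelial markers, miR-126-3p and miR-126-5p, had a summed scaled signal of 2631 to 4140 in liver macrophages, 220 to 247 in colon macrophages and 0 to 35.6 in microglia. The lymphocyte marker miR-150-5p was at a scaled signal of 136 to 503 in liver macrophages and 7.12 to 18.6 in colon macrophages, and was not detected in microglia. Both followed the order of miR-15b-5p, highest in the liver and lowest in microglia, and their part in its levels was not tested. The 5 epithelial markers summed to 2209 to 3152 in colon macrophages, 596 on microglia replicate 1, 7.22 on microglia replicate 2 and 15.6 to 34.4 in liver macrophages. They were highest in the colon, as miR-195a-5p was, and their part in its levels was not tested. On microglia replicate 2, where these markers were near the floor, miR-195a-5p stood at 6.66 against 6.76 on replicate 1. The hepatocyte markers miR-122-5p and miR-122-3p summed to 2143 to 3639 in liver macrophages, 158 to 277 in microglia and 0 in colon macrophages, an order that no member followed.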

How the data were processed

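Small RNA was measured on 1-colour Agilent miRNA arrays from 100 ng of total RNA per pool. The deposited scanner intensities are gene-level signals with an error and a detection call, written by Agilent Feature Extraction 9.1 per the submitters' processing notes, and undetected miRNAs hold a placeholder of 0.1. The authors' deposited value table holds log2 values, and how they were normalized is not stated by the labels or the files. It served as an alternative.

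From the intensities, 21 control rows were left out. Arrays were scaled to a common 75th percentile, the mean of the 6, taken over 248 miRNAs with a detection call on every array. Signals were then set to at least 3.12 scaled units, the floor, and log2 was taken. limma 3.58.1 (R 4.3.3) was fitted to all 3 groups with moderated variances (3 residual and 2.2 prior degrees of freedom). A miRNA entered a comparison if both arrays of either group detected it, with Benjamini-Hochberg adjustment over all of them and a threshold of 0.05. The limma step alone was tried on simulated log2 values with every miRNA detected, so the scaling, the floor and the detection filter were not tested in that way. Nothing in the labels says how mice were divided over pools, so p-values measure only the spread between these arrays. A miRNA undetected in a group has only a bound there, and its fold, given as at least N-fold, sets the other group's mean against the lowest detected signal of each array. That an undetected miRNA lies below that signal is assumed, because its own signal is replaced by the placeholder. Within-array differences were tested by exact permutation of arrays.

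The members were chosen by name, all are reported, and the lists of relatives and markers follow their names or sequences. Members and lists were chosen with earlier results of these data known. Alternatives covered the scaling, the floor, the detection filter, the groups in the fit, the authors' table, a replicate block and each array left out. The control-row scaling and the pairs of members were added after the data were seen.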

Additional observations from a re-analysis of the deposited data

How the results depend on the processing

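With 2 arrays per group, calls near the threshold moved easily. The deposited error estimate reached 22% of the signal for the dim member miR-195a-3p and 22.1% for miR-497-5p. Over the settings of single members' changes, 238 kept direction and side of the threshold, 65 kept the direction and missed the threshold, 5 passed it anew and 13 changed sign. The 238 include changes that were not called and stayed so, while the 65 all fall on calls. Calls against the colon and the liver were kept in 7 and 9 of 18 settings for miR-15a-5p and in 10 and 10 for miR-16-5p. They were kept in 14 and 14 of 18 for miR-497-5p and in 10 and 8 of 17 for miR-195a-3p. The call of miR-15b-5p against the liver was kept in 10 of 18. Members called higher and lower in microglia were 2 and 2 against the colon and 2 and 3 against the liver. Higher against the colon, 1 was left with a floor of 1 or of 10, and 0 with no scaling or on the control rows (0 at an unadjusted p under 0.05 in limma for each). Higher against the liver, 1 was left with only the 2 groups in the fit, and 0 with no scaling or on the control rows (2 and 1 at an unadjusted p under 0.05 in limma). Lower against the liver, 1 was left with scaling on the median. Without a detection filter 0 were called in either direction against either group (limma, 1247 miRNAs tested; at an unadjusted p under 0.05, 1 higher and 3 lower against the colon, 2 and 3 against the liver). With only miRNAs detected on all arrays 1 was lower against the colon, since miR-195a-3p was not tested. With the 75th percentile over all miRNAs 0 members were called (limma, 2 higher and 0 lower at an unadjusted p under 0.05 in each comparison), because that percentile fell on the placeholder on microglia replicate 1. It turned the changes of miR-15b-5p, miR-195a-5p and miR-497-5p to 3.21, 3.15 and 0.95 against the colon and to 2.94, 3.97 and 1.82 against the liver.

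Over all miRNAs, the 175 calls against the colon became 116 with a floor of 10, 27 without a filter, 111 on those detected on all arrays and 0 with the percentile over all miRNAs (120 at an unadjusted p under 0.05 in limma). The 202 against the liver became 52 without a filter and 0 with that percentile (131 unadjusted). The 40 between colon and liver became 26 with no scaling, 24 on the control rows, 7 without a filter, 19 on those detected on all arrays and 0 with that percentile (8 unadjusted). miR-195a-5p against the liver turned to 0.40, 0.42 and 0.46 with median scaling, quantile normalization and the authors' table and ranged from -0.087 to 0.013 with 1 array left out, the last without microglia replicate 2. Between colon and liver, miR-16-5p turned to -0.0056 with quantile normalization and to -0.33 without liver replicate 1, which also turned miR-15a-5p to -0.31 (range -0.31 to 0.87 with 1 array left out).

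With 1 array left out, members higher ranged from 0 to 2 against each group, members lower from 0 to 3 against the colon and from 1 to 2 against the liver, and all calls from 54 to 202 and from 121 to 228. Between colon and liver 0 to 1 members were higher and 25 to 110 miRNAs were called. The colon minus liver difference between the strands of miR-195a ranged from -0.45 to 1.09 and was -0.14 without colon replicate 2 and -0.45 without liver replicate 2. The deviations of same-numbered replicates correlated at 0.214, 0.0715 and -0.0922 over 248 miRNAs, and the labels name no batch, so replicates were not paired. With 2 arrays per group these correlations cannot show whether the numbers mark a batch. With the replicate block 1 member was higher against the colon, with miR-15a-5p at a limma adjusted p of 0.0508, no other member call changed, and calls over all miRNAs were 161, 191 and 24. The cause of these changes was not tested, except where the number tested or the placeholder is named.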
